A study of Homo sapiens with 14 samples.

Results

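Cells that carry Snai1 fused to the hormone-binding part of the estrogen receptor (the Snai1ER line, derived from a gastric carcinoma line that the labels call MKN28 and the paper calls MKN74) were kept in 4-hydroxytamoxifen (4-OHT) at 20 ng/mL, and RNA was hybridised to a GeneChip Human Gene 1.0 ST array after 4 days and after 2 days. The difference between those 2 arrays, day 4 minus day 2, is described here. They were picked by their labels, which give treatment, line and time, and are 2 of 14 arrays in all, with 1 array per condition. The arrays they are compared with are the untreated Snai1ER array of day 4 and a pair of 4-OHT arrays of day 4 and day 2 from Snai1ER cells with knockdown of ANGPTL4, a secreted angiopoietin-like protein. All 5 arrays share the transgene and low-density seeding. The other 9 arrays are of the parental line, untreated on day 2 or under hypoxia or TGFb for 1 and 2 days with and without ANGPTL4 knockdown, and enter only the filter on dim genes, the SNAI1 range and the distances between arrays. No array holds untreated Snai1ER cells of day 2, so time in culture and time in 4-OHT cannot be told apart in the difference between day 4 and day 2. The agent is also a ligand of the estrogen receptor, and no array holds parental cells in 4-OHT.

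Snai1 is a zinc finger transcription repressor that binds E-boxes in the promoters of epithelial genes and drives the epithelial-mesenchymal transition (EMT), the loss of cell-cell junctions in favour of a motile, mesenchymal state. Fused to the receptor's hormone-binding part it is made all the time but acts only when 4-OHT is present, which lets early and late responses be separated in time. Among the programmes that recur below, the unfolded protein response raises chaperones when misfolded proteins build up in the endoplasmic reticulum, and the integrated stress response acts through the transcription factor ATF4 on amino acid supply, redox balance and cell death genes.

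Values are log2 expression, so a difference of 1 is a doubling. With 1 array on each side there is no replicate check, no p-value is given, and genes are named by size only. A gene counts as higher or lower when the 2 arrays differ by at least 1.5-fold, a log2 difference of 0.58. Levels are compared between arrays for the same gene, never between genes.

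SNAI1 read 9.58 in untreated cells, 9.62 on day 2 and 9.55 on day 4, against 4.76 to 6.19 on the parental arrays, so the transgene was present on all of these arrays at about the same level. With knockdown it read 8.80 on day 4 and 9.85 on day 2. ANGPTL4 lay between 5.06 and 5.43 on all 5 Snai1ER arrays, below the level at which genes were kept, and therefore does not check the knockdown. All 8 epithelial markers reached that level, while 2 of 8 fibroblast, 1 of 6 endothelial and 1 of 6 leukocyte markers did. The day 4 array lay farther from the mean of the other arrays (SD over the genes kept 0.56) than the day 2 array (0.37) or the untreated array (0.37), within the range of 0.27 to 0.69 over all 14. With knockdown these values were 0.46 on day 4 and 0.55 on day 2. The part of this distance in the results below was not tested.

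On day 4, 585 of 11050 genes were at least 1.5-fold higher than on day 2 (5.29%) and 1231 were lower (11.1%). The counts of list members without knockdown given below are to be read against these shares. The median difference was -0.04, with an SD over genes of 0.46. After all arrays were quantile normalized anew the split was 755 higher and 1052 lower, and without the filter on dim genes it was 1164 higher and 1383 lower. Between day 2 and the untreated array, 424 genes were higher (3.84%) and 200 lower (1.81%), 5.65% in either direction. More genes thus passed the same size between day 4 and day 2, in both directions. The day 2 array enters both differences, with opposite signs. The untreated array is of day 4, so day 2 minus untreated mixes 4-OHT with a shorter time in culture. Early, late, steps and moving back refer below to this order of arrays, not to a measured time course. The values nearest the threshold show how little separates members from the rest: C2CD4C, UBE2H and CFD were 1.5002, 1.5005 and 1.5006-fold higher and counted, whereas IER2 and SNORD14C at 1.4998-fold and FAM86C2P at 1.4999-fold did not.

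Genes that moved only late were those within a log2 difference of 0.32 of the untreated array on day 2 and, on day 4, at least 1.5-fold from both the day 2 and the untreated array in the same direction. There were 279 that were higher (2.52% of all genes tested) and 673 that were lower (6.09%). Another 77 genes were already higher on day 2 and went further by at least 1.5-fold (0.697%), and 41 did so downward (0.371%). Movement back by at least 1.5-fold after an early difference was found upward in 23 genes (0.208%) and downward in 86 (0.778%). The remaining 206 higher and 431 lower genes fitted none of these classes, 1.86% and 3.90% of all genes. The plot of the late against the early difference separates these classes.

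**Figure D1:**
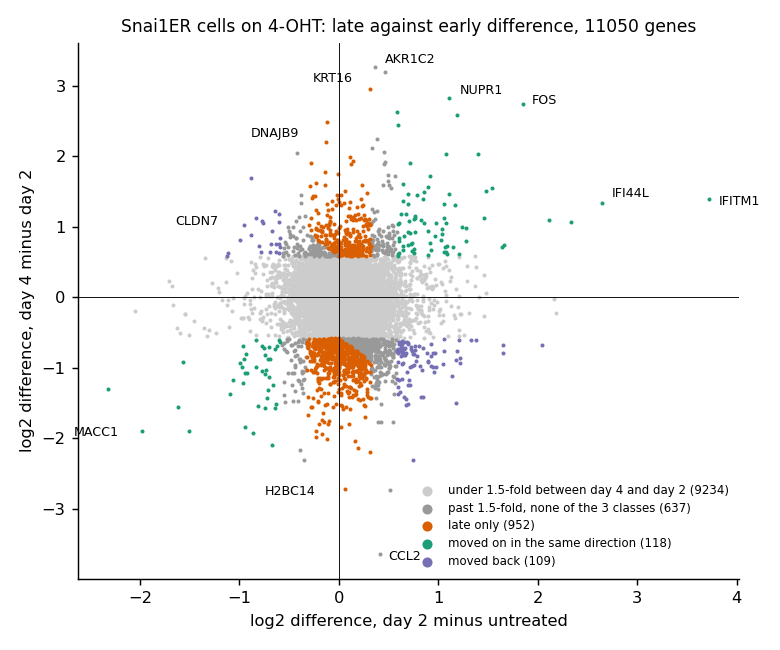
Each of 11050 genes is a point, with the log2 difference between day 2 and the untreated array on the horizontal axis and that between day 4 and day 2 on the vertical axis, 1 array per condition. Late-only genes (orange) form the vertical band around 0, AKR1C2 and CCL2 mark the ends of the vertical axis at 3.26 and -3.65, and IFITM1 and IFI44L lie far to the right as genes that were already higher on day 2.

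Promoter sequences of 6 genes that carry the main results are shown here, each with the element its regulators are known to bind in capitals, because the gene groups below were described by such shared elements as well as by their levels. HSPA5, CRELD2, CHAC1 and PLK1 were chosen after their values were seen. All are 300 bases from RefSeq (GRCh38.p14), from 250 before to 50 after the start of transcription, 5′ to 3′ along the gene. HSPA5 (chr9:125241294-125241593, minus strand), the chaperone BiP, and CRELD2 (chr22:49918384-49918683, plus strand), a secreted factor of the endoplasmic reticulum, carry the endoplasmic reticulum stress element at -66 and, on the opposite strand, at -80. CHAC1 (chr15:40953221-40953520, plus strand), a glutathione-degrading enzyme, carries the core of the C/EBP-ATF response element on the opposite strand at -209. IFITM1 (chr11:313790-314089, plus strand), an interferon-induced membrane protein, carries the core of the interferon-stimulated response element at -40 and at -6. PLK1 (chr16:23678639-23678938, plus strand), a mitotic kinase, carries the cell cycle homology region at -29. HSPA6 (chr1:161524290-161524589, plus strand), a strictly stress-induced HSP70, carries a heat shock element on the opposite strand at -74.
HSPA5: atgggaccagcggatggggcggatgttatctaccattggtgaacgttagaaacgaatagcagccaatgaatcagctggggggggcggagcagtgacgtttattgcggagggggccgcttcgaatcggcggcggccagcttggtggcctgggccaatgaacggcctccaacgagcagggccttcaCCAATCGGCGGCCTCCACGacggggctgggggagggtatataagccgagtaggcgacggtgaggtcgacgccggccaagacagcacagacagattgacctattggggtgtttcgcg
CRELD2: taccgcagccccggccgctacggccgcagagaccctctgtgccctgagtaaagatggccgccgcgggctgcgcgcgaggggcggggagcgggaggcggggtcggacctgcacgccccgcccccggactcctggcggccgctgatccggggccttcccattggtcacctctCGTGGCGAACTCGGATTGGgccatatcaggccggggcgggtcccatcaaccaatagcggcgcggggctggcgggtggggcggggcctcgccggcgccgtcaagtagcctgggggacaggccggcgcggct
CHAC1: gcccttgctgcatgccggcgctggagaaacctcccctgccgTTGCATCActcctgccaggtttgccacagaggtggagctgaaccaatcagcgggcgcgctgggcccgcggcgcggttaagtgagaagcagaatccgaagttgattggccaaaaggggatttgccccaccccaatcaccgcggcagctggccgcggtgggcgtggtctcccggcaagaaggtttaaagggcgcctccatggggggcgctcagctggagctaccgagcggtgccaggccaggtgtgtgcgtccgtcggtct
IFITM1: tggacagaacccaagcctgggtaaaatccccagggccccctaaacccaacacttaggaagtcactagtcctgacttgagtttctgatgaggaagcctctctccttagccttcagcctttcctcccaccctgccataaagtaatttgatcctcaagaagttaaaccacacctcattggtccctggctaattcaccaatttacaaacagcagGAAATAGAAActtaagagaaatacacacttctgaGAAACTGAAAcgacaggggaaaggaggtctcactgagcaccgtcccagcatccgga
PLK1: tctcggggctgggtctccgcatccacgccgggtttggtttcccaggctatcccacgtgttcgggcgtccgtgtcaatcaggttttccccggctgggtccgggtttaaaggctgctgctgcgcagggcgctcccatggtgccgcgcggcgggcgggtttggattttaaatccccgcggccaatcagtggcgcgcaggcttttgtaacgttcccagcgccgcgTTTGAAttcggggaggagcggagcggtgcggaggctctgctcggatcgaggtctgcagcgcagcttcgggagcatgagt
HSPA6: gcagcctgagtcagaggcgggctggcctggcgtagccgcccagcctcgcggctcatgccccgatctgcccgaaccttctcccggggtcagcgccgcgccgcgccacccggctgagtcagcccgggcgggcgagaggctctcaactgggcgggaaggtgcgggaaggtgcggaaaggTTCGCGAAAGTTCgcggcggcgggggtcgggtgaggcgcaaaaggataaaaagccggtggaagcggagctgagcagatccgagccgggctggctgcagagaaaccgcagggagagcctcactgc

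The unfolded protein response was the list with the highest median, and it was late. Of 29 measured members, 19 were higher on day 4 than on day 2 (65.5%) and 1 was lower, with a median difference of 0.72, and 28 of 29 lay above 0. Of the 19 higher members 16 were late-only, and the median difference from untreated cells was 0.04 on day 2 and 0.77 on day 4. In 23 of 29 the day 4 array was the highest of the 5 Snai1ER arrays, which held for 27.2% of all genes kept.

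DNAJB9, a co-chaperone of BiP, read 6.37 in untreated cells, 6.24 on day 2 and 8.44 on day 4, a 4.58-fold difference between day 4 and day 2. HYOU1, a chaperone of the lumen, read 8.22, 8.36 and 10.29 on the same arrays, 3.80-fold higher on day 4. Both stood close to untreated cells on day 2 and above every other Snai1ER array on day 4. HSPA5 itself, chosen after its values were seen, read 11.49 in untreated cells, 11.63 on day 2 and 12.60 on day 4 (0.97). HERPUD1, which takes part in the disposal of misfolded proteins, differed from its list in timing: it read 9.41 in untreated cells, 10.12 on day 2 and 12.03 on day 4 (1.90). XBP1, the transcription factor whose spliced form drives the response, read 7.94, 8.45 and 10.04 (1.59), so it already lay above untreated cells on day 2.

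The remaining members past 1.5-fold were chosen for mention after their values were seen. They were the secreted factors MANF (1.31) and CRELD2 (1.31), the co-chaperones DNAJC3 (1.24), SDF2L1 (1.23) and DNAJB11 (0.70), the oxidoreductase PDIA4 (1.01) and the chaperone CALR (0.66). The retrotranslocation and ubiquitin ligase components SELENOS (1.02), DERL2 (0.94), SEL1L (0.72) and SYVN1 (0.60), the translocon subunit SEC61B (0.88), the coat protein SEC24D (0.75) and the sensor ATF6 (0.59) completed them. ERO1A, the oxidase that supplies disulfide bonds, was the exception and read 9.13 on day 4 and 9.77 on day 2 (-0.63). The higher members thus spanned folding, transport and disposal.

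With ANGPTL4 knockdown the same list had 2 of 29 members higher on day 4 than on day 2, against 9.71% of all genes, and 3 lower, with a median of -0.12. HSPA5 read 11.47 on day 4 and 11.59 on day 2 with knockdown, HYOU1 8.32 and 8.67, and HERPUD1 9.60 and 9.73. Relative to untreated cells without knockdown, the list's median was 0.10 on both knockdown arrays, so it lay near the untreated level at both times. The 2 members higher in both time differences were ATF6 (0.59 without and 0.67 with knockdown) and DNAJC3 (1.24 and 0.61).

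The endoplasmic reticulum stress element, searched on both strands as CCAAT and CCACG with 9 bases between them, was in the promoter window of 4 of the 18 higher members that have one in the table (22.2%), namely HSPA5, CALR, CRELD2 and XBP1. Among all 26 measured members with a promoter it was in 6 (23.1%), and among all genes kept in 13 of 8908 (0.146%). Its share in the list was thus about the same for members past 1.5-fold as for all members. This motif and that of the heat shock element were added after the list values were known, and a match is a description only. CAGGTG, the E-box of Snai1, was in none of the 18 windows of higher members and in 1 of 26 of all measured members (3.85%). Among all genes kept it was in 18.6% of windows.

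The ATF4 and integrated stress response list moved the same way but already lay above untreated cells on day 2. Of 47 measured members 24 were higher on day 4 than on day 2 (51.1%) and none lower, with a median of 0.62, and all 47 lay above 0. Of these members, 14 had already been at least 1.5-fold above untreated cells on day 2 and went on, and 6 were late-only. The list's median difference from untreated cells was 0.33 on day 2 and 0.90 on day 4.

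NUPR1, a small stress-induced chromatin protein, read 6.40 in untreated cells, 7.51 on day 2 and 10.34 on day 4, a 7.12-fold difference between the days. DDIT3 (CHOP), the death-promoting transcription factor at the junction of both stress pathways, read 6.84, 8.03 and 10.61 (5.97-fold). PPP1R15A (GADD34), which brings the phosphatase that restores translation, read 8.33, 8.66 and 10.77 (2.12). In these 3 genes the step between day 2 and day 4 was larger than that between untreated cells and day 2. WARS1, the tryptophanyl-tRNA synthetase, was late-only at 8.59, 8.58 and 10.34 (1.75).

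Other members past 1.5-fold were chosen after their values were seen. They included the secreted cytokine GDF15 (1.51), the transcription factors ATF3 (1.46) and CEBPG (0.67), the pseudokinase TRIB3 (1.16), CHAC1 (1.31), the mTORC1 inhibitor DDIT4 (1.06) and the angiogenic factor VEGFA (1.12). Amino acid transporters and enzymes were among them, with SLC3A2 (1.36), SLC1A4 (1.32), CTH (1.12), PHGDH (0.99), ASNS (0.94) and PSAT1 (0.94). SLC3A2, the heavy chain that pairs with several amino acid transporters, read 9.17 in untreated cells, 9.10 on day 2 and 10.46 on day 4. DDIT4 by contrast already lay far above untreated cells on day 2, at 5.06, 7.39 and 8.45.

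With knockdown, 3 of 47 members were higher on day 4 than on day 2 and 9 lower, with a median of -0.08. Over all genes 9.71% were higher and 11.1% lower with knockdown. This list did not lie at the untreated level on the knockdown arrays, since its median difference from untreated cells was 0.41 on day 4 and 0.51 on day 2. CHAC1 read 7.18 on day 4 and 7.54 on day 2 with knockdown, against 5.96 in untreated cells. TRIB3 read 7.53 and 8.42, against 6.99. DDIT3 in turn read 7.17 and 6.81, near its untreated 6.84. Members thus differed in whether the knockdown arrays resembled day 2 or untreated cells, as the plot of 8 stress genes shows. PPP1R15A went the opposite way past 1.5-fold, 7.63 on day 4 and 8.30 on day 2 (-0.67).

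**Figure D2:**
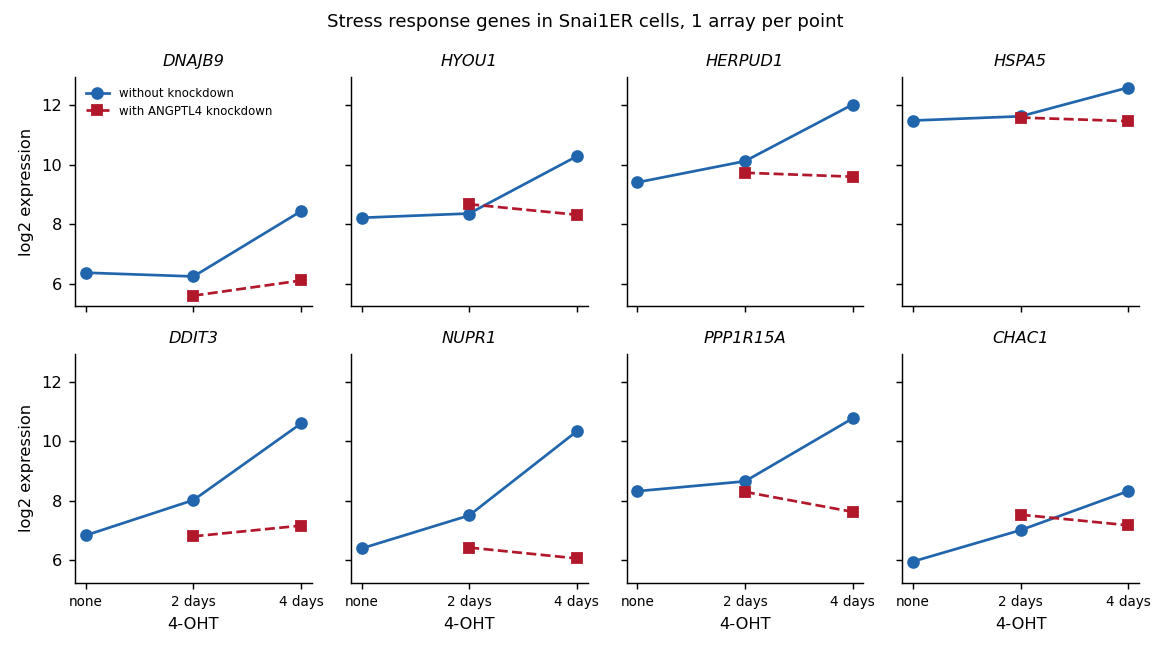
Log2 expression of 8 genes of the unfolded protein and integrated stress responses in Snai1ER cells with no 4-OHT, 2 days and 4 days of it, 1 array per point, without knockdown (blue circles) and with ANGPTL4 knockdown (red squares). On day 4 each gene is highest without knockdown, for example 8.44 for DNAJB9 without and 6.11 with knockdown, while no knockdown line rises by more than 0.51.

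TGATGNAA, the core of the C/EBP-ATF response element through which ATF4 acts, was found on either strand in 5 of 21 promoter windows of higher members (23.8%) and in 11 of 39 of all measured members (28.2%), against 1.70% of all genes kept. The 5 were ATF3, CHAC1, ASNS, SLC3A2 and CARS1.

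Redox genes contained the highest value of the whole comparison. Of 39 measured members of the list of NRF2 targets, antioxidant enzymes and metallothioneins 11 were higher on day 4 and none lower, with a median of 0.32. AKR1C2, an aldo-keto reductase that inactivates steroids, read 6.60 in untreated cells, 6.97 on day 2 and 10.23 on day 4, 9.60-fold higher between the days. Its close relatives AKR1C3 (9.02, 9.91 and 11.47) and AKR1C1 (5.58, 6.02 and 7.61) were higher too, but the 3 genes are so alike in sequence that their probes may read each other. HMOX1, which breaks down haem, read 8.78 in untreated cells, 9.37 on day 2 and 11.99 on day 4 (2.62). Among members chosen after their values were seen, OSGIN1 (1.07), the glutathione synthesis subunits GCLC (1.01) and GCLM (0.87), and SRXN1 (0.88) were also higher.

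With knockdown none of the 39 redox members was higher on day 4 than on day 2, against 9.71% of all genes. Another 10 were lower, against 11.1% of all genes, and the median was -0.21. HMOX1 read 7.82 on day 4 and 8.01 on day 2 with knockdown, and AKR1C2 5.69 and 6.15. AKR1C3 lay at 6.14 and 6.16, below its untreated level of 9.02, so the knockdown arrays differed from the untreated array for this gene as well as from day 4.

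The list of the EGF family, feedback genes of the ERK pathway and immediate early genes had a median of 0.36. Of 30 measured members 10 were higher (33.3%, against 5.29% of all genes) and 2 lower (6.67%, against 11.1%). In all, 19 lay above 0 and 11 below, with TGFA lowest (-0.69). FOS, a subunit of the AP-1 transcription factor, read 5.99 in untreated cells, 7.85 on day 2 and 10.58 on day 4 (6.67-fold between the days). DUSP1, the phosphatase that turns off MAP kinases, read 7.04, 8.44 and 10.47 (2.03), and EGR1 8.93, 9.78 and 11.17 (1.39). These genes already lay above untreated cells on day 2. JUN, the partner of FOS, lay near its untreated level then: it read 7.46, 7.52 and 8.85 (1.33). With knockdown 1 of the 30 was higher and 7 lower, where 9.71% of all genes were higher and 11.1% lower. FOS then read 5.58 on day 4 and 6.16 on day 2, and DUSP1 7.12 and 7.81.

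Cytosolic chaperones and heat shock genes, a list added after HSPA6 had been seen among the largest differences, had 7 of 36 members higher and none lower, with a median of 0.10. HSPA6 read 5.53 in untreated cells, 6.12 on day 2 and 8.56 on day 4 (5.43-fold). ZFAND2A, an arsenite-inducible proteasome adaptor, was late-only at 10.84, 10.56 and 12.46 (1.90). DNAJB4 (1.71), DNAJB1 (1.60), BAG3 (0.77), HSPA13 (0.76) and SERPINH1 (0.64) made up the rest, all chosen after their values were seen. The heat shock element, searched on both strands as GAA, TTC and GAA with 2 bases between each, lay in 2 of 7 promoter windows of higher members, in 6 of 33 of all measured members (18.2%) and in 0.314% of all genes kept. HSPA6 shares much of its sequence with other HSP70 genes, which its probes may also read.

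The interferon list was higher at both steps and shared its direction with the knockdown arrays. Of 37 measured members 10 were higher on day 4 than on day 2 (27.0%) and none lower, with a median of 0.32. All 10 had been at least 1.5-fold above untreated cells on day 2, and none was late-only. IFITM1 read 5.31 in untreated cells, 9.04 on day 2 and 10.43 on day 4 (1.39). XAF1, an antagonist of apoptosis inhibitors, read 5.35, 6.43 and 8.47 (2.03), IFI44L 4.22, 6.87 and 8.21 (1.34), and IRF9, the DNA-binding subunit of the interferon-activated complex ISGF3, 6.68, 7.66 and 8.71 (1.05).

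With knockdown 20 of 37 members were higher on day 4 than on day 2 (against 9.71% of all genes), 1 was lower, and the median was 0.67. IFITM1 read 6.57 on day 4 and 5.57 on day 2 with knockdown, and IFI44L 5.85 and 4.73, all of them below both arrays without knockdown. Of members chosen after their values were seen, IFI27 (0.71 without and -0.13 with knockdown) and ISG15 (1.04 and 0.05) were higher past 1.5-fold only without knockdown. IFIT2 (-0.12 and 1.20) and SAMD9 (-0.11 and 1.95) were higher past it only with knockdown. In all, 5 members were higher in both. The core of the interferon-stimulated response element, searched on both strands as GAAA and GAAA with 2 bases between them, lay in 5 of 9 promoter windows of higher members (55.6%), in 21 of 32 of all measured members (65.6%) and in 2.65% of all genes kept.

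Cell cycle lists were lower on day 4, and most of their lower members were late-only. In the DNA replication list 26 of 46 measured members were lower on day 4 than on day 2 (56.5%) and none higher, with a median of -0.62, and 20 were late-only. In the mitosis list 23 of 45 were lower (51.1%) and none higher, with a median of -0.62 too, and 20 were late-only. No member of either list differed from untreated cells by 1.5-fold on day 2. The day 4 array was the lowest of the 5 in 28 of 46 replication genes and 33 of 45 mitosis genes, against 28.8% of all genes kept.

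Among replication genes CLSPN, which relays the signal of stalled forks, read 9.52 in untreated cells, 9.29 on day 2 and 7.39 on day 4 (-1.90). CCNE2, a cyclin of S phase entry, read 8.59, 8.61 and 7.21 (-1.39), MCM10, a loader of the replication machinery, 10.46, 10.56 and 9.29 (-1.27), and MCM3, a subunit of the replicative helicase, 9.30, 9.57 and 8.40 (-1.17). Genes outside the lists belonged to the same step: TICRR, needed to fire origins, at 9.04, 9.35 and 7.15 (-2.20), E2F8, a repressor of the S phase programme, at 9.13, 9.15 and 7.31 (-1.84), and FAM111B, a protease, at 10.38, 10.03 and 7.71 (-2.32). All of these stood within 1.5-fold of untreated cells on day 2 and well below on day 4.

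Among mitotic genes MKI67, the proliferation marker that coats mitotic chromosomes, read 11.14 in untreated cells, 10.99 on day 2 and 9.22 on day 4, 3.41-fold lower between the days. FOXM1, the transcription factor that drives the mitotic programme, read 9.44, 9.54 and 8.13 (-1.41), KIF14, a kinesin of cytokinesis, 8.95, 8.91 and 7.72 (-1.20), and ASPM, a spindle pole protein, 9.74, 9.73 and 8.56 (-1.17). PLK1 read 10.02, 10.02 and 9.04 (-0.98). The anaphase activator CDC20 (-0.20) and the kinase AURKB (-0.20) did not pass 1.5-fold, and these 3 genes were chosen after their values were seen.

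Replication-dependent histones, made in S phase, were lower in 16 of 31 measured members and higher in none, with a median of -0.71. H2BC14 read 8.68 in untreated cells, 8.74 on day 2 and 6.01 on day 4 (6.62-fold lower), H1-5 7.95, 8.46 and 5.73 (-2.73), H1-3 7.92, 8.67 and 6.37 (-2.30), and H2BC9 10.48, 10.91 and 9.14 (-1.76). Here day 2 lay above untreated cells in part, with a list median of 0.28, so 6 were late-only and 3 counted as moving back. Histone copies are nearly identical in sequence, and their probes may read more than their own gene.

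**Figure D3:**
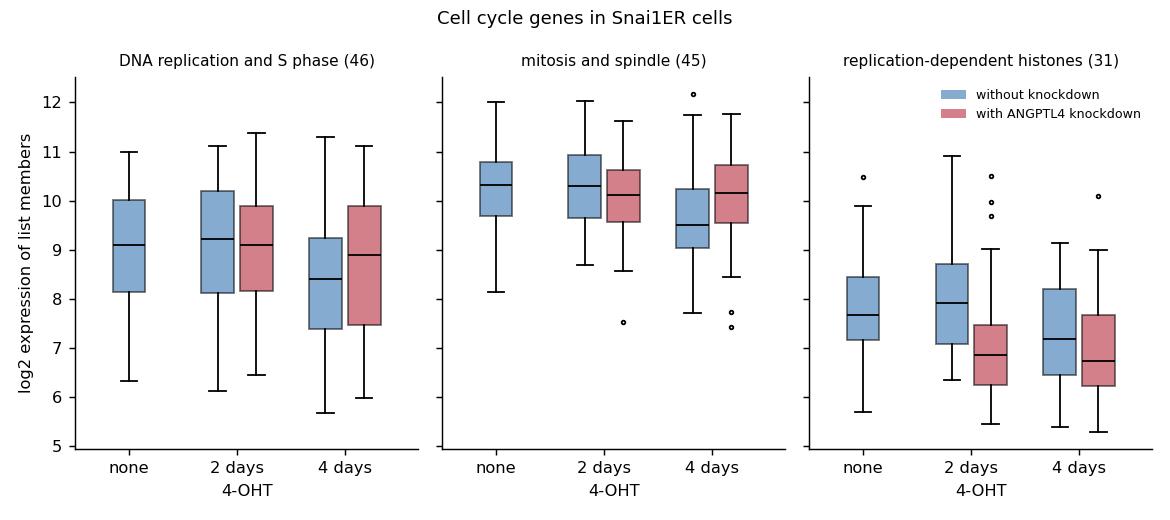
Box plots of the log2 expression of list members on each Snai1ER array (box, quartiles with the median as a line; whiskers, 1.5 times the interquartile range; points, members beyond), with no 4-OHT, 2 days and 4 days of it, blue without and red with knockdown of ANGPTL4. The mitosis median is 9.51 on day 4 without knockdown and 10.16 with it, and the histone median lies lower on both knockdown arrays (6.74 on day 4, 6.86 on day 2) than in untreated cells (7.68).

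With knockdown, where 9.71% of all genes were higher on day 4 and 11.1% lower, mitosis members were higher in 6 and lower in 7 of 45, a share near that of all genes, with a median of 0.08, and 3 were lower in both time differences. MKI67 read 11.30 on day 4 and 11.35 on day 2 with knockdown, and KIF14 9.59 and 8.92. Replication members were lower in 13 of 46 and higher in 5, with a median of -0.39, and 7 were lower in both. MCM2, chosen after its values were seen, was among those 7 (-0.76 without and -1.19 with knockdown), whereas CCNE2 (-1.39 and 1.21) and CLSPN (-1.90 and 0.57) read higher on day 4 with knockdown. Histones had 6 higher and 5 lower, and their level on both knockdown arrays was already below that of untreated cells.

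TTTGAA, the cell cycle homology region bound by the complexes that time mitotic genes, lay in 15 of 20 promoter windows of lower mitosis members (75%), in 27 of 38 of all measured members (71.1%), in none of 24 windows of lower replication members and in 9.83% of all genes kept. Over all 1000 lower genes with a window it lay in 16.4%. As a motif of 6 letters it is common, and it was searched on both strands; 15.4% of all promoters in the table contain it.

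Most growth arrest genes did not pass 1.5-fold, and most of those that were higher were late-only. Of 30 measured members of the list of CDK inhibitors and p53 targets 7 were higher (23.3%, against 5.29% of all genes) and 1 lower. Of the 7, 6 were late-only. The list median was 0.00, with 15 members above 0 and 15 below. CDKN1A (p21), the inhibitor that stops the cell cycle, read 6.52 in untreated cells, 6.78 on day 2 and 7.87 on day 4 (1.10). GADD45B, a stress sensor, read 8.17 on day 4 and 6.84 in untreated cells (1.17 between the days), and BTG1, an antiproliferative factor, 8.48, 8.31 and 9.24 (0.93). SESN1, a p53 target, went the other way at 8.34, 8.43 and 7.46 (-0.98). With knockdown CDKN1A read 7.07 on day 4 and 6.94 on day 2. Then 3 of the 30 were higher and 2 lower, where 9.71% of all genes were higher and 11.1% lower.

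The lowest value of the comparison was that of CCL2, the chemokine that attracts monocytes. It read 10.72 in untreated cells, 11.14 on day 2 and 7.49 on day 4, 12.6-fold lower on day 4 than on day 2. With knockdown CCL2 was low on both arrays, 6.52 on day 4 and 7.29 on day 2. The list of NF-kB feedback genes and cytokines, to which it belongs, was mixed, with 6 of 31 higher and 5 lower and a median of 0.11. The acute phase proteins SAA1 (9.72, 8.10 and 6.54) and SAA2 (9.30, 8.20 and 6.84) were lower at both steps, as was the NF-kB inhibitor TNFAIP3 (8.70, 7.74 and 6.52), chosen after its values were seen. PTGS2, the inducible cyclooxygenase, was instead late-only and higher, at 8.69, 8.46 and 10.08 (1.62).

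Late-only genes outside the lists were of several kinds. KRT16, a keratin of stressed and wounded epithelium, read 7.36 in untreated cells, 7.68 on day 2 and 10.63 on day 4 (7.74-fold), and 7.42 on day 4 and 7.37 on day 2 with knockdown. ANGPT2, a ligand of the endothelial receptor TIE2, read 6.33, 6.44 and 8.42 (1.98). Small noncoding RNAs were also prominent: RPPH1, the RNA of RNase P, read 7.92, 8.04 and 9.92 (1.88), SNORA80E 6.83, 6.71 and 9.20 (2.49), and RNU11, a minor spliceosome RNA that was not in the late-only class, 6.16, 6.62 and 9.81 (3.19). Over the 82 small nucleolar and Cajal body RNAs measured, a list added after these had been seen, 25 were higher and 14 lower without knockdown. These shares were 30.5% and 17.1%, against 5.29% and 11.1% of all genes. With knockdown 23 were higher and 16 lower, where 9.71% of all genes were higher and 11.1% lower. Small RNAs thus passed more often than all genes in both directions and in both pairs. Among late-only lower genes outside the lists were the gap junction gene GJA5 (-1.98), BRI3BP (-1.94) and the secreted IGFL4 (-1.81).

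MACC1, a regulator of the MET receptor gene, had the largest gap between the 2 time differences of any protein-coding gene past 1.5-fold in opposite directions. It read 10.44 in untreated cells, 8.46 on day 2 and 6.56 on day 4 (-1.90), and with knockdown 9.30 on day 4 and 8.04 on day 2 (1.26). ADGRL2 (9.99, 9.05 and 7.20) and SYT14 (8.87, 7.36 and 5.46) were lower at both steps as well.

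The EMT genes that could be measured moved little between day 2 and day 4. Of 25 EMT transcription factors and epithelial regulators on the array, 18 were bright enough to be kept, with a median of -0.09. None was higher and 2 were lower, GRHL2 (-0.97) and SOX4 (-0.66), a share of 11.1% that equals that of all genes. GRHL2, which maintains epithelial genes, read 9.41 in untreated cells, 9.63 on day 2 and 8.66 on day 4. Of 38 mesenchymal and contractile genes on the array, only 20 were kept. None of the 20 passed in either direction, and their median was 0.05. VIM and FN1, textbook mesenchymal genes outside the rule for named genes, were looked up as well. VIM, a filament protein, read 7.94, 7.91 and 8.18, and FN1, fibronectin, 8.78, 9.22 and 9.19.

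Of 38 epithelial junction and keratin genes 2 were higher and 4 lower, with a median of 0.02. These shares, 5.26% and 10.5%, were near the 5.29% and 11.1% of all genes. CDH1 (E-cadherin), the best-known target of Snai1 and also outside that rule, read 10.70 in untreated cells, 10.93 on day 2 and 10.84 on day 4. CLDN7, a tight junction claudin, had been lower on day 2 and was back on day 4, at 9.28, 8.33 and 9.35 (1.02). CRB3 was higher (0.68), and DSG2 (-0.70), CGN (-0.66), NECTIN1 (-0.66) and DSP (-0.64), components of desmosomes and tight or adherens junctions, were lower, NECTIN1 and DSP being chosen after their values were seen. With knockdown CLDN7 read 8.78 on day 4 and 8.16 on day 2 (0.63), the same direction. CAGGTG lay in 10 of 23 promoter windows of the epithelial list (43.5%), 17.5% of those of all higher genes, 14.7% of those of all lower genes and 18.6% of those of all genes kept.

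Among TGFb targets 4 of 22 were higher and 4 lower, 18.2% each, against 5.29% and 11.1% of all genes. CCN2 (1.09) and CDKN1A (1.10) were on one side and the receptor TGFBR2 (-1.15) and EDN1 (-1.07) on the other. TGFBR2 read 8.22 in untreated cells, 8.43 on day 2 and 7.28 on day 4, and 8.28 on day 4 and 9.23 on day 2 with knockdown (-0.95).

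Metabolic lists stayed close to the median of all genes without knockdown. Glycolysis had 2 of 31 higher and 1 lower with a median of 0.02, the respiratory chain and TCA cycle none of 48 higher and 2 lower (-0.02), cholesterol synthesis 1 of 21 higher (-0.09), fatty acid synthesis 1 of 26 higher and 3 lower (-0.13) and fatty acid oxidation 1 of 18 higher (-0.08). Single members stood out, among them the pentose phosphate enzyme PGD (0.73), the aldolase ALDOC (0.92) and ACACA, the rate-limiting enzyme of fatty acid synthesis (-1.19). Of 24 genes of amino acid metabolism other than ATF4 targets 6 were higher and 1 lower, with the arginine enzymes ARG2 (1.64) and ASS1 (1.55) leading and the polyamine acetyltransferase SAT1 (1.34) next. With knockdown glycolysis had none higher and 13 lower, with a median of -0.46, and the respiratory chain 4 higher and 12 lower. Over all genes 9.71% were higher and 11.1% lower with knockdown.

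Hypoxia-inducible factor targets were higher in 6 of 27 and lower in 1, with NDRG1 (1.40), JMJD6 (1.39) and VEGFA (1.12) ahead. In the autophagy and lysosome list 7 of 44 were higher and 2 lower, among them WIPI1, an early autophagosome protein (1.37), MAP1LC3B, the precursor of LC3 (1.04), and the receptor SQSTM1 (0.81). WIPI1 was also higher with knockdown (0.93), whereas SQSTM1 was lower (-0.98). Ribosome biogenesis had none higher and 3 of 36 lower, UBTF (-0.99), UTP20 (-0.89) and POLR1A (-0.86). That share, 8.33%, was under the 11.1% of all genes. MHC class I genes had 1 of 10 higher and 1 lower, estrogen receptor targets 1 of 7 higher and 2 lower, and gastric and intestinal differentiation 1 of 12 lower. These lists are small, and over all genes 5.29% were higher and 11.1% lower. The plot of list medians sets all 27 lists side by side.

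**Figure D4:**
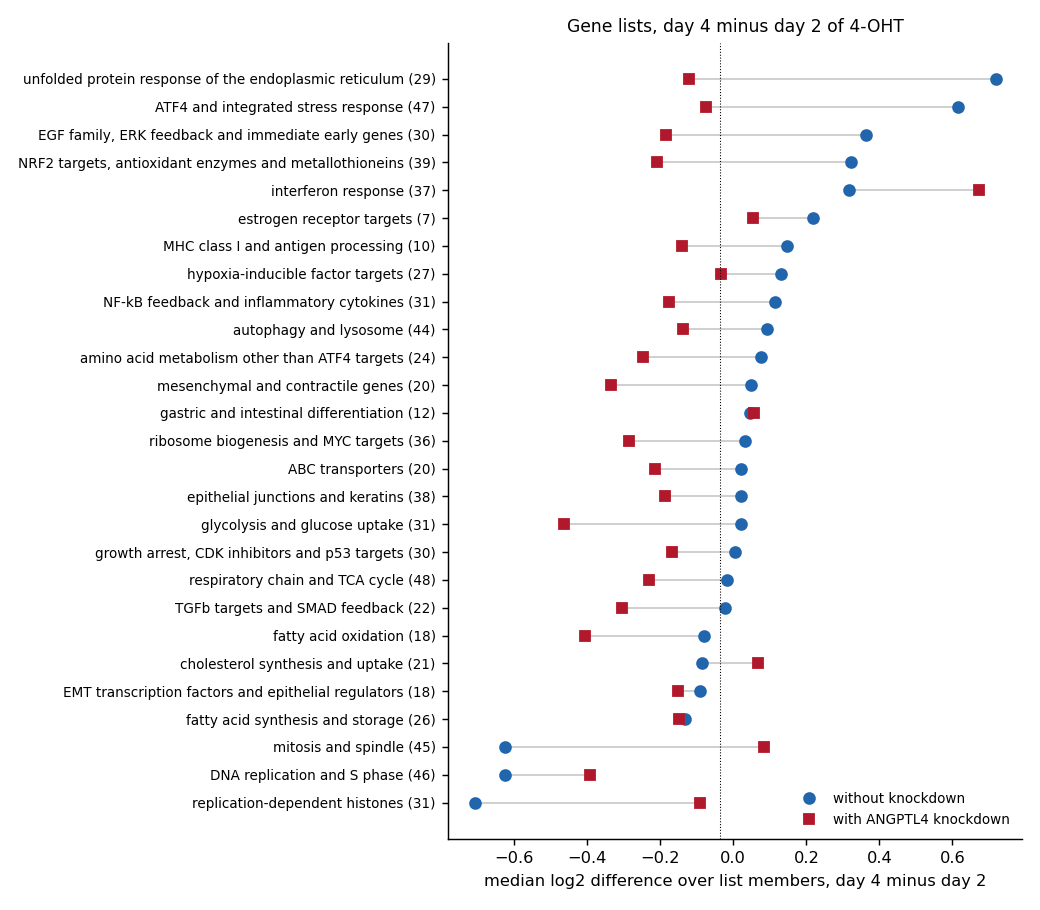
Median log2 difference between day 4 and day 2 over the measured members of each of 27 lists (number in brackets), without knockdown (blue circles) and with ANGPTL4 knockdown (red squares); the dotted line is the median of all genes without knockdown, -0.04. The unfolded protein response (0.72) and the ATF4 list (0.62) are highest and the mitosis (-0.62), replication (-0.62) and histone (-0.71) lists lowest without knockdown; their knockdown values, in the same order, are -0.12, -0.08, 0.08, -0.39 and -0.09.

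The ABC transporter family, which holds the drug efflux pumps that the study is about, was nearly level between the days. The list is of the whole family, not of efflux pumps alone, and 20 of its 37 members on the array were kept. Of these 20, ABCC3 was higher (0.82) and ABCB10 lower (-0.75), with a median of 0.02. ABCC1 read 7.37 in untreated cells, 7.71 on day 2 and 7.53 on day 4. ABCB1 (4.73 on day 4 and 4.70 on day 2) and ABCG2 (5.08 and 5.16) lay below the level at which genes were kept. Of 12 measured genes that the paper names NFKB1 alone passed 1.5-fold (-0.82, late-only), and MYC, at 9.86, 9.73 and 9.87, did not.

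The same time difference in the knockdown pair shares no array with the one above and serves as a check on it, although it tests a different condition. With knockdown 1073 genes were higher (9.71%) and 1224 lower (11.1%). In both, 87 genes were higher, 14.9% of the list without and 8.11% of the list with knockdown. Over all genes 9.71% were higher with and 5.29% without knockdown. Lower in both were 116 genes (9.42% and 9.48%), where 11.1% of all genes were lower in either pair. Opposite directions were about as frequent. There were 76 genes higher without and lower with knockdown (13% and 6.21%, against 11.1% and 5.29% of all genes). Another 154 were lower without and higher with knockdown (12.5% and 14.4%, against 9.71% and 11.1% of all genes). Across the 11050 genes Pearson's r was -0.07 and Spearman's rho -0.09, a description over genes, which are not independent and whose values share array-wide features of 4 arrays.

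By class, 33 of 279 late-only higher genes, 20 of 77 that went on upward and 7 of 23 that moved back upward were also higher with knockdown, where 9.71% of all genes were. Downward it was 67 of 673 late-only genes, 4 of 41 that went on and 4 of 86 that moved back, where 11.1% of all genes were lower. The differences between classes were not tested. Whether the knockdown or array-to-array variation makes the difference between the pairs cannot be told apart with 1 array per condition. SNAI1 itself differed between the knockdown arrays (-1.05) and not between the arrays without knockdown (-0.07), and its part in the result was not tested. The plot of both time differences shows the stress lists high without knockdown and spread around 0 with it.

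**Figure D5:**
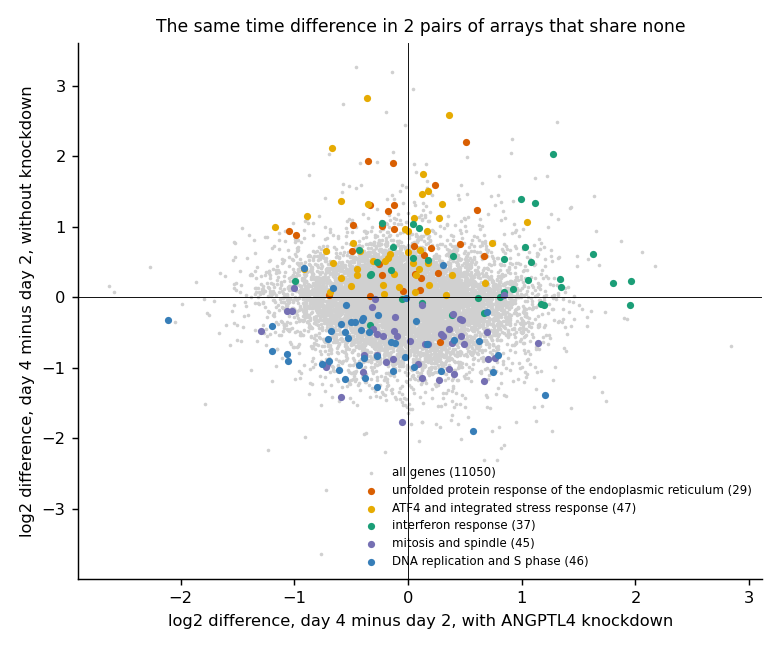
Log2 difference between day 4 and day 2 without knockdown (vertical) against that with ANGPTL4 knockdown (horizontal) for 11050 genes (grey) and for members of 5 lists (colours). Members of the unfolded protein and integrated stress lists lie above 0 vertically in 28 of 29 and 47 of 47 genes but on either side of 0 horizontally, 28 of 37 interferon genes lie above 0 vertically and 27 of 37 horizontally, and 43 of 45 mitosis genes lie below 0 vertically with horizontal values on either side.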

How the data were processed

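RNA of each condition was amplified with the NuGEN Applause WT-Amp ST system and hybridised to 1 array. The deposited values are log2 expression that the authors made by RMA in Partek, per the submitters' processing notes, which give no versions; the build and annotation they used are not given in the sources used here. RMA as a method quantile-normalizes arrays to a common distribution, which can hide a shift shared by most genes, and its values understate large changes. The deposited arrays of the whole series did not share a common distribution, since their medians over all probe sets ran from 5.19 to 6.16. Without knockdown this median was 6.00 on day 4 and 6.00 on day 2, and with knockdown 6.12 and 6.06. The filter on dim genes and the distances between arrays were computed without rescaling. The log2 values were used as deposited.

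Of 33297 probe sets, 19460 with 1 gene symbol were named, with symbols updated by gene ID for 19429; 1754 with several symbols and 12083 not listed were left out. Probe sets of a gene were averaged (18417 genes). Genes with a mean over all 14 arrays at or above the 40th percentile, 5.90, were kept (11050). The day 4 and day 2 arrays held the same value to every digit in 224 probe sets (0.67%), and the knockdown pair in 549.

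A call was a difference of at least 1.5-fold. No test was possible, and the number of arrays limits the precision. Named genes are the 12 largest differences each way, the 10 largest late-only, the 5 largest that went on or moved back, up to 4 members per list, the 6 largest gaps to the knockdown pair each way and genes the paper names; every other gene named in the text, among them VIM, FN1 and CDH1 and the genes nearest the threshold, was chosen outside this rule with values known. The members and lists were chosen with earlier results of these data known. Promoters are RefSeq's (GRCh38.p14), found by symbol for 8908 of the genes kept. The calling steps were tested on simulated data. Alternatives covered array scaling, the filter on dim genes, the brightest probe set, a 2-fold rule and a wider band for no early difference. Python 3.11.15 with numpy 2.4.6, pandas 2.3.3 and matplotlib 3.10.9 was used.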

Additional observations from a re-analysis of the deposited data

Results flagged for a closer look

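These results went at least 1.5-fold in opposite directions between day 4 and day 2 without and with ANGPTL4 knockdown. With 1 array per condition the difference between them was not tested. In all, 76 genes were higher without and lower with knockdown, 13% of those higher without it. Over all genes 11.1% were lower with knockdown. Another 154 were lower without and higher with knockdown, 12.5% of those lower without it. Over all genes 9.71% were higher with knockdown. The values below are log2 differences, day 4 minus day 2, without and then with knockdown.

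Higher without and lower with knockdown were the stress phosphatase regulator PPP1R15A (2.12 and -0.67), the MAP kinase phosphatase DUSP1 (2.03 and -0.69), the hypoxia-induced NDRG1 (1.40 and -0.73), LY6K (1.08 and -0.90), the autophagy receptor SQSTM1 (0.81 and -0.98), and FADS3 (0.99 and -0.73) and ECI1 (0.68 and -0.63) of lipid metabolism.

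Lower without and higher with knockdown were the cell cycle genes CCNE2 (-1.39 and 1.21), KIF14 (-1.20 and 0.67), FAM111B (-2.32 and 0.78) and the linker histone H1-3 (-2.30 and 0.67). Others in this direction were MACC1 (-1.90 and 1.26), ADGRL2 (-1.85 and 0.80), SYT14 (-1.90 and 0.74), NRIP1, a corepressor of nuclear receptors (-0.77 and 1.06), and ZNF716 (-1.35 and 1.70). Noncoding genes made up the rest, with SCARNA9 (-0.69 and 2.84), LIMD1-AS1 (-1.48 and 1.74), SNORD13P2 (-1.57 and 1.43), SNORA3B (-2.09 and 0.85) and DGCR11 (-2.15 and 0.82).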

How the results depend on the processing

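No named or listed gene past 1.5-fold that could be compared changed direction under the 6 alternatives that give gene values, 786 to 803 of 803 genes each. Of the gene values compared, 777 of 802 stayed on their side of 1.5-fold after quantile normalization anew, 800 of 803 after centring array medians and 799 of 801 with the brightest probe set. Without the filter on dim genes, 1164 genes were higher on day 4 and 503 were late-only and higher, and the median of the EMT regulators, -0.09 with it, was 0.0385 and that of histones -0.49. With the filter on the 5 Snai1ER arrays the histone median was -0.51 and that of estrogen receptor targets 0.012. By the 2-fold rule 150 genes were higher and 300 lower without knockdown, 237 higher and 256 lower with it, 63 late-only higher and 151 late-only lower, and 11 were higher and 4 lower in both time differences. No paired analysis was possible because each condition has 1 array. Replicate error is unknown, so the size of a difference says nothing of its repeatability, and dim genes near background have compressed differences.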
